A study of Xenopus laevis with 2 samples.

Results

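Xenopus laevis, the African clawed frog, is an allotetraploid: its genome joins the chromosome sets of 2 related ancestral species. Many genes therefore exist as a copy on the long chromosomes, named with the suffix .L, and a copy on the short chromosomes, named with the suffix .S. Such copies are called homeologs. The short set is known to have lost more genes than the long set, and homeologs that both remain can differ in where and how strongly they are transcribed. The signals of both copies were compared here within the array labelled wildtype.

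The pairs were chosen by measured signal in that array, and the ratios between their copies are given as a description. A pair needed at least 1 probe set annotated to the .L copy alone and at least 1 annotated to the .S copy alone. A copy's signal was that of its brightest probe set, and a pair was kept when at least 1 copy reached a signal of 75. Of 6246 genes with any .L or .S probe set, 1017 had both and 801 were kept, while 216 had both copies under 75. Another 3290 genes had probe sets for the L copy only and 1939 for the S copy only. Both names of all 801 kept pairs were found among the gene symbols of the Xenopus_laevis_v10.1 assembly, which holds 7803 genes with both suffixes. Signals under 20 were raised to 20, and the ratio of L to S was taken on the log2 scale, where 0 is equality and 2 is a 4-fold difference.

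The series holds an array labelled Derriere depleted and an array labelled wildtype, both of dorsal posterior tissue from stage 18 neurulae. The labels call this tissue largely mesodermal. By the labels, depleted embryos received 2 ng of morpholino against Derriere, a TGF-beta family ligand, on both dorsal sides at the 4-cell stage together with GFP. The sources used here give no genotype, no count of embryos and no word on whether the wildtype embryos were injected. With 1 array in each group, no value below could be checked in a replicate, and no test was made.

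Of the posterior mesoderm markers, 10 of 11 were measured and all 10 reached 75 in the array labelled wildtype, from 202.6 to 2294.1 with tbx6 the brightest. Of 8 measured somite and muscle markers 7 reached 75. Markers of other tissues reached 75 too, 5 of 7 measured neural markers, with sox2 the brightest at 573.6, and 4 of 6 epidermal markers. Among the latter the epidermal lectin itln1 read 8244.9 and tp63 only 1.9. In the array labelled wildtype the median over frog probe sets was 75.4, so reaching 75 does not by itself show a tissue. Endoderm markers reached 75 in 2 of 6, neural crest markers in 2 of 4 and notochord markers in 4 of 4. Of 4 measured blood and endothelium markers 1 reached 75, lmo2 at 2797.7. The transcript of the targeted ligand, gdf3.S, read 2318.6 in the array labelled Derriere depleted and 552.0 in the array labelled wildtype. It was thus not lower under the depletion label. This is a reading of RNA, and the protein that the morpholino was meant to deplete was not measured. The arrays are called by their labels throughout.

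The ratio between copies was spread widely around a centre near equality. In the array labelled wildtype the median log2 L/S was 0.16, with quartiles at -1.16 and 1.73, an SD of 2.28 and a range from -7.57 to 8.15. The L copy was brighter in 428 pairs and the S copy in 372. The median size of the difference, in either direction, was 1.51 on the log2 scale, or 2.85-fold. A ratio of 4-fold or more was found in 299 of 801 pairs (37.3%). The L copy was the brighter in 171 of these (21.3% of all pairs) and the S copy in 128 (16.0%). Ratios of 16-fold or more were found in 59 pairs. In 69 of the 299 the dimmer copy read under 20, so that its ratio is a lower bound.

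**Figure D1:**
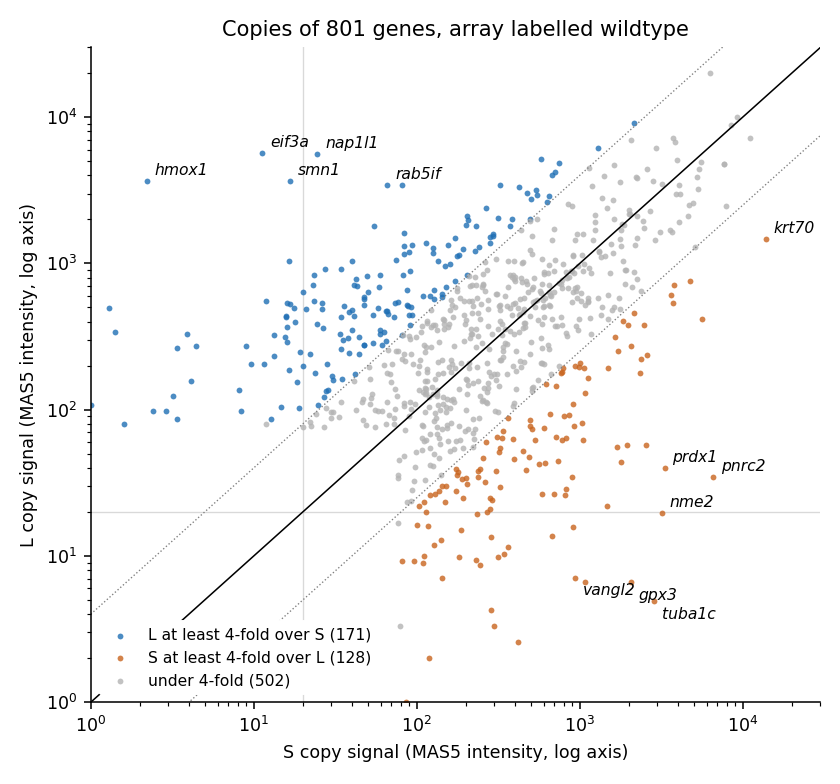
Signal of the L copy (vertical) against the S copy (horizontal) in the array labelled wildtype for 801 pairs, both as MAS5 intensity on log axes. The solid line is equality, dotted lines mark 4-fold, grey lines mark the floor of 20, and signals under 1 are drawn at 1. The cloud is broad on both sides of equality, with 171 pairs past 4-fold towards L and 128 towards S.

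L and S are read by different probe sets, and probe sets differ in how strongly they bind and label the same transcript. How far probe sets named for the same copy differ could be seen, because 883 copies had at least 2 probe sets with the brighter at 75 or more. How much of such a difference is binding, and how much annotation or the part of the transcript read, was not tested. Taking for each copy the first 2 probe sets in order of their identifier, the median size of their difference was 1.68 on the log2 scale, and 373 of 883 (42.2%) differed by 4-fold or more. The SD was 2.28 between homeologs and 2.46 between probe sets of a copy. Among the 574 pairs with exactly 1 probe set per copy, 213 (37.1%) were past 4-fold. The 883 copies include genes outside the kept pairs. In the 226 of them that belong to kept pairs, 102 (45.1%) were past 4-fold and the SD was 2.62. Some probe sets of a copy share an identifier apart from its suffix, so they may not be separate readings. By these measures the spread between homeologs was no wider than the spread between probe sets of 1 and the same copy. A given ratio between L and S is a ratio of probe set signals, and how much of it is transcript abundance was not tested.

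Among probe sets at 75 or more the spreads were close, and which was wider depended on the measure. With both copies at 75 or more, 103 of 522 pairs (19.7%) were past 4-fold the median size was 0.99 and the SD 1.52. With both probe sets of a copy at 75 or more, 109 of 505 copies (21.6%) were past 4-fold the median size was 0.94 and the SD 1.71. The .L copies alone and the .S copies alone gave like values, with 214 of 492 and 159 of 391 past 4-fold between their own probe sets. Over the whole array the probe sets named .L had a median signal of 105.6 and those named .S a median of 116.6.

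**Figure D2:**
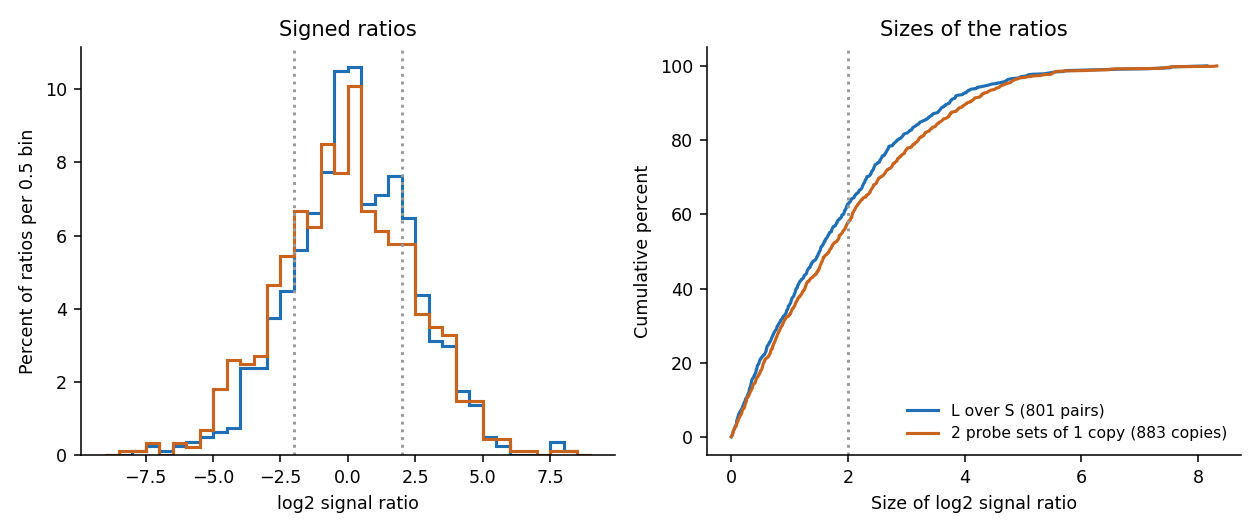
Distribution of log2 signal ratios in the array labelled wildtype, for L over S in 801 pairs (blue) and for 2 probe sets of 1 copy in 883 copies (orange), as percent per bin (left) and as cumulative percent of the sizes (right). Dotted lines mark 4-fold. The curves lie close together, and the orange curve is at or below the blue one over most of its length, so same-copy ratios were at least as large.

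The ratio moved with the number of probe sets, of which the brightest was used. In the 100 pairs with more probe sets for L the median log2 L/S was 1.15, in the 110 pairs with more for S it was -0.83, and in the 574 pairs with 1 each it was 0.21. Pairs were also divided by the signal of the brighter copy into 4 classes, from the dimmest to the brightest, and 57 of 201, 83 of 200, 74 of 200 and 85 of 200 were past 4-fold. In the dimmest class the brighter copies read from 75.6 to 217.0, so the floor of 20 limits its ratios. Probe sets whose identifiers mark probes shared by several transcripts (suffix _s_at, _x_at or _a_at) read the brighter copy in 7.36% of pairs past 4-fold and in 10.2% of the others. They read the dimmer copy in 5.69% of pairs past 4-fold and in 5.98% of the others.

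The annotation also gave 97 probe sets that name both copies of a kept pair and were not used for the ratios. Of the 31 that belong to pairs past 4-fold, 21 read between the signals of the copies, 7 read above both and 3 below both. Of the 66 that belong to the other pairs, 15 read between the copies, 26 above both and 25 below both. A probe set naming both copies thus often read outside the range set by the copy-specific ones, mostly in pairs under 4-fold. By definition that range is narrow in pairs under 4-fold and wide in the others. The counts of these groups therefore cannot be compared.

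Pairs with several probe sets per copy show how far a ratio depends on the probe set. At least 2 probe sets for each copy were present in 26 pairs, and in 12 of them (46.2%) the L and S probe sets did not overlap in signal, with L above in 7 and S above in 5. In some of the 12 the probe sets of a copy share an identifier apart from its suffix, so they may not be separate readings. This holds for both copies of cwc15, dnajb11, rnf126 and rps3a and for the S copies of slc30a6 and dnttip1. The widest gap was that of eif3a, the large subunit of a translation initiation factor: its L probe sets read 1760.5, 5572.4 and 5685.4, and its S probe sets 11.0 and 11.3. Every L probe set of eif3a was far above every S probe set. The dimmest L reading was at least 88.0 times the floor of 20, under which both S readings lay.

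Lower L signals without overlap were found for 3 further pairs past 4-fold. For slc30a6, a zinc transporter of the secretory pathway, the L probe sets read 22.5 and 38.8 and the S probe sets 332.2 and 465.1. For guk1, guanylate kinase, they read 46.4 and 61.7 for L and 426.9 and 532.0 for S. For dnttip1, a subunit of a histone deacetylase complex, the 4 L probe sets read from 3.7 to 34.3 and the 2 S probe sets 155.9 and 200.6. In these pairs, and in eif3a, even the nearest L and S probe sets were 4-fold or more apart, which held for 4 of the 26.

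Other pairs overlapped or lay close. The cold-inducible RNA-binding protein gene cirbp read 362.9 and 8878.2 for L, and 739.3 and 8524.3 for S, so that each copy had a bright and a dim probe set. For hnrnpa1, a splicing regulator, 3 L probe sets read from 1767.0 to 4973.8 and 4 S probe sets from 193.5 to 5550.6. The proto-oncogene myc read 696.9 and 1134.6 for L, and 149.4, 401.1 and 1035.2 for S. A ratio that turned with the probe set was that of the cyclin-like gene ccnyl1, whose L probe sets read 18.0 and 600.1 and lay on either side of the S probe sets at 108.8 and 120.7.

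**Figure D3:**
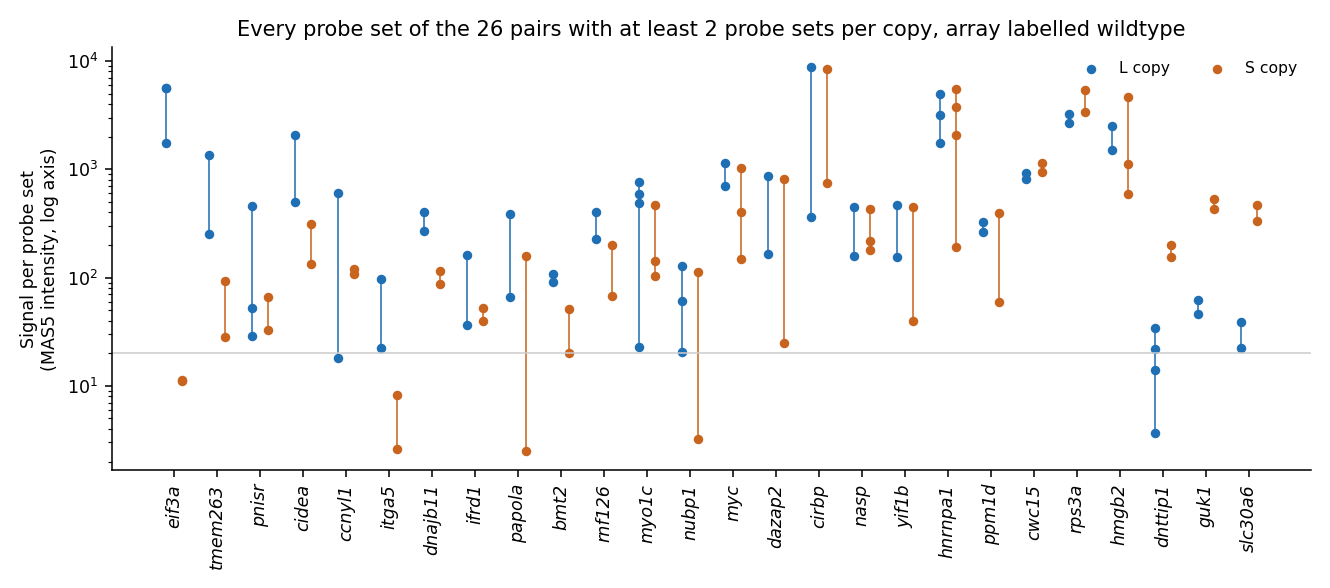
Signal of every probe set (MAS5 intensity, log axis) in the array labelled wildtype for the 26 pairs with at least 2 probe sets per copy, L in blue and S in orange, ordered by log2 L/S of the brightest probe sets. Lines join the probe sets of a copy and the grey line is the floor of 20. The copies do not overlap in 12 pairs, while within many copies the probe sets themselves are far apart.

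At least 1 copy had more than 1 probe set in 227 pairs. In 128 of these (56.4%) the L and S probe sets did not overlap, with L above in 64 and S above in 64. Only 26 of the 227 had 2 or more probe sets for both copies. In the rest 1 copy had a single probe set, which overlaps the others only by lying between them. How often probe sets without a copy difference would fail to overlap was not tested, here or in the 26 pairs. Every L probe set was 4-fold or more from every S probe set, in the same direction, in 41 (18.1%). The brightest probe sets alone gave 86 pairs past 4-fold among the 227, so the call held for all probe sets in 41 of 86. Several of the most unequal pairs of the whole set were among the 41, namely eif3a, nap1l1, snap25, txndc12, smo and bmpr1a with L brighter, and pnrc2 and tuba1c with S brighter. The L probe sets of bmpr1a at 661.0 and 717.5 share an identifier apart from its suffix, so they may not be separate readings.

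The pairs most unequal towards L, besides eif3a with a log2 L/S of 8.15, were nap1l1, hmox1 and smn1. The histone chaperone gene nap1l1 read 5615.8 for L and 24.6 for S, a 228-fold ratio, and its dimmer L probe set still read 982.4. The haem oxygenase gene hmox1 read 3688.7 for L and 2.2 for S, which is at least 184-fold. The gene smn1, whose product assembles spliceosomal small nuclear ribonucleoproteins, read 3673.6 for L and 16.8 for S, again at least 184-fold. All 3 had a bright L copy and an S copy near or under the floor.

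The next 8 pairs towards L had ratios from 30.9-fold to 52.3-fold. The Rab-interacting factor gene rab5if read 3455.4 for L and 66.1 for S, and snap25, a SNARE of synaptic vesicle release, read 1036.3 for L against 9.8 and 16.5 for its 2 S probe sets. The purine synthesis gene paics.1 read 3462.6 for L and 81.3 for S. Its S copy was above 75, and only paics.1 and timm8b, a mitochondrial import gene, were past 16-fold with both copies at 75 or more. The proteasome core gene psma3 had a log2 L/S of 5.16, the thioredoxin-domain gene txndc12 5.07, the replicative helicase gene mcm5 5.04, the Hedgehog transducer smo 4.97 and the BMP receptor gene bmpr1a 4.95. In each of these 5 the S copy read between 20.2 and 54.4.

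The pairs most unequal towards S were led by pnrc2, whose product takes part in messenger RNA decay. Its L copy read 34.9 and its 3 S probe sets from 2682.3 to 6613.1, a log2 L/S of -7.57. The nucleoside diphosphate kinase gene nme2 read 19.7 for L and 3178.5 for S, and the alpha-tubulin gene tuba1c read 4.9 for L and from 1248.2 to 2857.6 over 3 S probe sets. These are ratios of at least 159-fold and at least 143-fold. Tubulins are a family of near-identical genes, so signal from other members may be shared among their probe sets.

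Antioxidant enzymes came next, with gpx3, a secreted glutathione peroxidase, at 6.6 for L and 2057.4 for S and the peroxiredoxin gene prdx1 at a log2 L/S of -6.37. They were followed by api5, an inhibitor of apoptosis, at -6.07, the proteasome regulatory gene psmd2 at -5.75, the planar polarity gene vangl2 at -5.55, the mitochondrial gene triap1 at -5.51, the Hsp70 cofactor gene st13 at -5.47, the spliceosome-associated gene cdc5l at -5.36 and the phosphoserine-binding adaptor gene ywhaz at -5.10. The L copies of psmd2, vangl2 and triap1 read under 20, so theirs are lower bounds in size. For api5 the S probe sets read 19.9 and 1465.1, on either side of the L probe set at 21.8. The other pairs of this paragraph had 1 probe set for each copy, so no other probe set used here repeats them.

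Some bright pairs had nearly equal copies by their brightest probe sets. Of the brightest 10% of pairs, the 8 closest to equality had log2 L/S between -0.35 and 0.11, and were picked for it. The chromatin architecture gene hmgn2 read 9988.3 for L and 9246.4 for S, and the splicing factor gene srsf6 read 3466.6 for L and 3204.3 for S. The histone variant gene h3-3b read 3449.9 for L and 4073.4 for S. The others were cirbp, hnrnpa1, the nucleolar gene utp15, the nuclear factor gene erh and the mitochondrial import gene timm13. Second probe sets could be far lower, as for erh, whose S probe sets read 183.5 and 5375.6 beside 4405.3 for L.

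At the 4-fold limit itself, the pairs just inside were cfb and psmc5 towards L, at 2.00 each, and gkap1 at -2.01 and tnnc1 at -2.03 towards S. Just outside were gramd2b at 1.99, cd63 at 1.98, xnf7 at -1.99 and samm50 at -1.98. The dimmer copies of cfb, tnnc1, gramd2b and samm50 read under 20, so their ratios are lower bounds in size. The S probe sets of xnf7 read 287.6 and 5127.6, on either side of L at 1289.9, and the dimmer L probe set of psmc5 read 241.3, under 4-fold from S at 80.7. At the limit of 75, nck1 and glmp were kept with a brighter copy at 75.6, while wdtc1 at 74.7 and chga at 73.7 were not.

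Gene lists by function held 343 of the 801 pairs, and 20 of 34 lists had at least 8 pairs. Their shares past 4-fold ran from 6.25% to 77.8%, around the 37.3% of all pairs. The lists are small, some share genes, and the members were found by name. A share that differs from 37.3% is therefore a description of these few pairs. Counts between probe sets of the same copy cover every copy on the array whose name matches the list. They take in genes that form no kept pair, so the L/S and same-copy values of a list come from unlike sets of genes. Among the pairs named below by their log2 ratio alone, the ratio is a lower bound in size for ak1, id2, tcf7l1, pkp4, tubg1, plk3, usp1, slc39a9, rab4b and rab7a, whose dimmer copy read under 20.

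**Figure D4:**
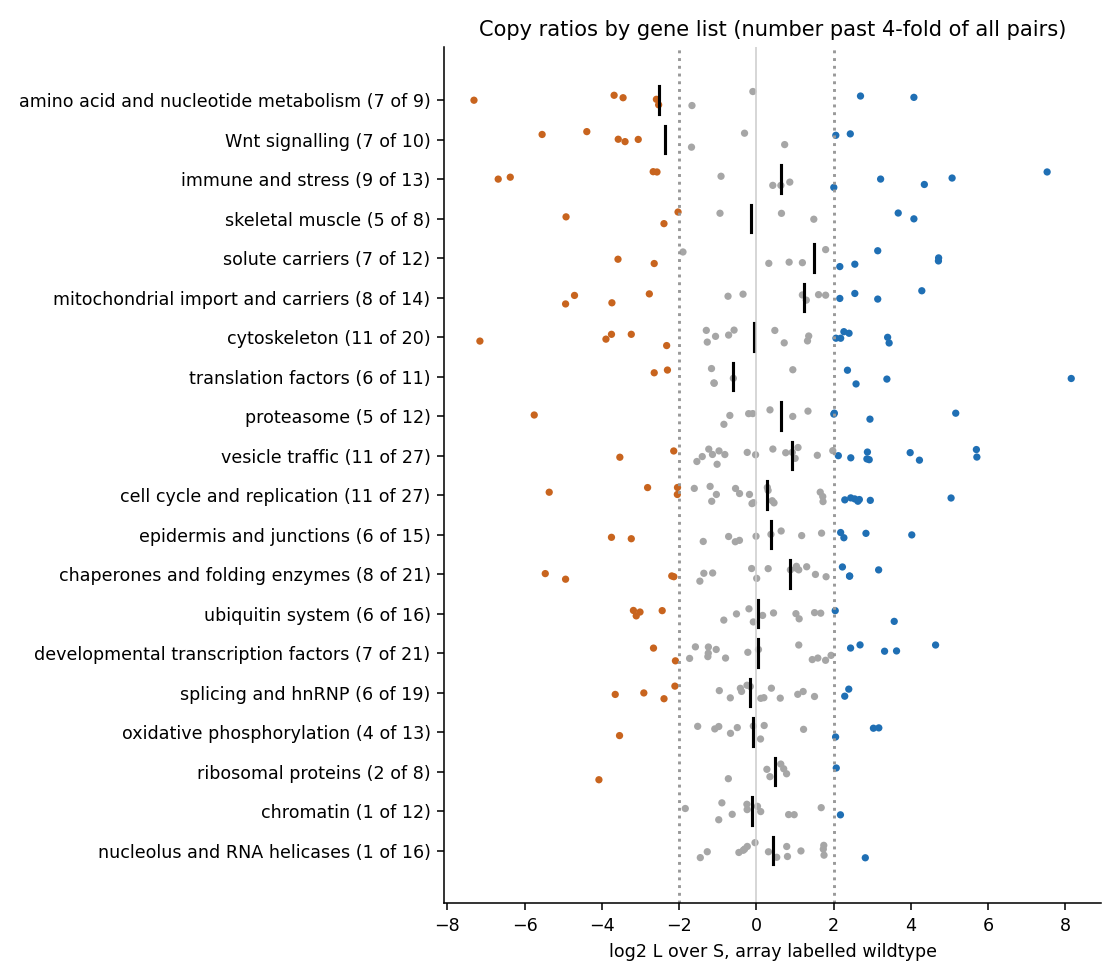
log2 L over S in the array labelled wildtype for each pair (points) of the 20 lists with at least 8 pairs, with the list median as a black bar. Blue and orange points are past 4-fold towards L and S, and the counts beside the names give pairs past 4-fold of all pairs. Chromatin and nucleolar genes have 1 pair each past 4-fold, while 7 of 10 Wnt pairs and 9 of 13 immune and stress pairs lie past it.

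Nucleolar and chromatin genes had few pairs past 4-fold. Of 16 pairs in the list of nucleolar genes and RNA helicases 1 was past 4-fold, the ribosome biogenesis gene rrp1b at 540.7 for L and 76.6 for S. By name the list took in wdr1, counted with the cytoskeleton too, at -1.27, and wdr83os, at 1.74, neither known as nucleolar or as a helicase. The median size over the list was 0.79, against 1.51 for all pairs, and 7 of the 16 were past 2-fold. Of 12 chromatin pairs 1 was past 4-fold, the histone methyltransferase gene kmt5b at 122.0 for L and 27.0 for S, and the median size was 0.86. The deacetylase gene hdac1 read 414.3 for L, between its S probe sets at 130.5 and 1484.6, and the histone variant gene h2az1 read 20079.9 for L and 6275.5 for S, both under 4-fold by the brightest probe sets. Among all copies on the array that match these lists by name, 10 of 20 nucleolar and 5 of 12 chromatin copies differed by 4-fold or more between their own probe sets. The median sizes were 2.01 and 0.88. By median size the chromatin pairs were about as far apart between L and S as probe sets of 1 chromatin copy, but fewer were past 4-fold. Pairs of the nucleolar list were closer than probe sets of 1 copy by both measures. The copies include genes that form no kept pair, so neither comparison is of the same genes.

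Genes of redox defence, immunity and stress were at the other end, with 9 of 13 pairs past 4-fold, 5 towards L and 4 towards S, and a median size of 2.67. Besides hmox1, gpx3 and prdx1, they included more peroxiredoxin genes. For prdx6 the signal was 11.9 for L and 127.5 for S. For prdx3, the mitochondrial form, it was 1176.1 and 128.2 for L and 126.6 for S, so that only 1 of the L probe sets differed from S. The NF-kappaB inhibitor gene nfkbia read 533.6 for L and 26.2 for S. The glutathione transferase gene gsta1 was brighter in S, at 2.0 for L and 119.1 for S. Between probe sets of the same copy, 4 of 8 copies of this list were past 4-fold.

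Among amino acid and nucleotide metabolism genes 7 of 9 pairs were past 4-fold, 2 towards L and 5 towards S, with a median log2 L/S of -2.53. The nucleotide enzymes divided: nme2 and the CTP synthase gene ctps1, at -3.68, were brighter in S, while the IMP dehydrogenase gene impdh2, at 2.69, and the adenylate kinase gene ak1, at 4.08, were brighter in L. The creatine synthesis gene gamt read 604.0 for L and 3634.1 for S. The list took in ahcyl2, at -2.53, and prpsap1, at -3.45, which resemble or bind metabolic enzymes and are not known as enzymes of these pathways. The methylation cycle enzyme gene ahcy was nearly equal, at 719.8 for L and 767.0 for S. Of 8 copies with several probe sets, 4 were past 4-fold between them.

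Wnt genes had 7 of 10 pairs past 4-fold, 2 towards L and 5 towards S, and a median of -2.37. The Wnt pathway passes signals from Frizzled receptors to beta-catenin, or to planar polarity proteins that orient cells in the neurula. The receptor genes fzd8, at 2.6 for L and 419.6 for S, and fzd10, at 24.2 for L and 288.8 for S, were brighter in S. A second S probe set read 14.8 for fzd8, under the floor like its L probe set, and 8.9 for fzd10, so both calls rest on 1 of 2 S probe sets. So were the planar polarity gene vangl2 and the beta-catenin inhibitor gene axin2, which read 223.8 for L and 2363.9 for S. The fifth was ctnnbl1, at -3.06, which shares its name with beta-catenin but is a splicing-associated protein. The casein kinase genes csnk1g3 and csnk1a1 were brighter in L, at 2.43 and 2.06. The beta-catenin gene ctnnb1 itself was under 4-fold, at 496.7 and 1589.7 for L, on either side of S at 957.2. Of 7 Wnt copies with several probe sets, 5 differed by 4-fold or more between them, which is a like share.

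TGF-beta and BMP genes had few pairs. Of 5, the type I BMP receptor gene bmpr1a was past 4-fold towards L, and the BMP effector gene smad1, at -3.83, and the activin receptor gene acvr2b, at -3.09, towards S. For acvr2b a second S probe set, at 3.6, lay below the L probe set at 46.3. The 3 L probe sets of bmpr1a read from 207.7 to 717.5 and its S probe set 23.2. Those at 661.0 and 717.5 share an identifier apart from its suffix. For smad1 the L probe set read 13.5 and the S probe sets 139.1 and 285.4. In both, each L probe set was 4-fold or more from each S probe set. The type I receptor gene acvr1 was nearly equal, at -0.36. Of 7 genes of receptor tyrosine kinase and MAPK signalling 2 were past 4-fold, both towards L, the stress kinase gene mapk8 at 4.05 and the MAP kinase phosphatase gene dusp1 at 3.75.

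Developmental transcription factors had 7 of 21 pairs past 4-fold, 5 towards L and 2 towards S, close to the share of all pairs. Those brighter in L were the Wnt effector gene tcf7l1 at 4.64, the dominant-negative bHLH gene id2 at 3.63, the homeobox gene msx1 at 3.32, the muscle factor gene mef2d at 2.68 and the Notch-type repressor gene hes4 at 2.44. The neural progenitor gene sox3, at 77.9 for L and 493.8 for S, and the epidermal homeobox gene dlx3, at 182.4 for L and 780.0 for S, were brighter in S. Of the mesodermal factors, mef2d was thus past 4-fold and the following were not. The myogenic factor gene myod1 read 376.7 for L and 775.1 for S, the somite segmentation gene mespa read 583.5 for L and 1743.6 for S, and the BMP-responsive repressor gene ventx2.1 read 550.3 for L and 530.3 for S. For hes4 the single L probe set read 1599.5 and the 5 S probe sets ranged from 11.1 to 295.1. Of 19 copies of this list with several probe sets, 11 were past 4-fold between them. The median size was 2.13 between these probe sets and 1.59 between L and S.

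Of 8 skeletal muscle pairs 5 were past 4-fold, 2 towards L and 3 towards S. The fast troponin C gene tnnc2 read 55.4 for L and 1687.0 for S, and the slow form tnnc1 read 9.3 for L and 81.6 for S. The tropomyosin gene tpm3 was brighter in S as well, at -2.39. The myosin light chain gene myl9, at 3.67, was brighter in L, but is best known from smooth muscle and non-muscle cells, and ak1 was counted here too. The fast myosin light chain gene myl1 was under 4-fold by the brightest probe sets, but its 3 L probe sets ranged from 226.5 to 3949.9, on either side of S at 1409.8. Of 5 muscle copies with several probe sets, 1 was past 4-fold between them.

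Cytoskeletal genes had 11 of 20 pairs past 4-fold, 6 towards L and 5 towards S, with a median of -0.05. Both directions occurred within the tubulins: tuba1c and tubg1, a gamma-tubulin of the centrosome at -3.90, were brighter in S, while the beta-tubulin gene tubb4b, at 3434.1 for L and 325.9 for S, was brighter in L. Of the actin regulators in this list, the Arp complex gene arpc5 at 3.44 and the cofilin gene cfl1 at 2.40 were past 4-fold, both towards L. Under 4-fold in the same list were cap1 at 0.72 and wdr1 at -1.27, and the tropomyosin gene tpm3, past 4-fold towards S, was counted with muscle. Among keratins, krt12.2 at -3.75 and krt70 at -3.24 were brighter in S and krt19 at 2.27 and krt12.4 at 2.18 in L. The signal of krt70 was 1470.7 for L and up to 13889.6 for S, but its 4 S probe sets went down to 43.4, and without the probe sets marked as shared its log2 L/S was 5.08. The direction of krt70 thus turned with the choice of probe set. Keratins are also a family of similar genes whose signals may be shared. Between probe sets of the same copy, 5 of 13 copies of the cytoskeletal list were past 4-fold.

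Junction genes outside the keratins included 2 past 4-fold, both towards L: the plakophilin gene pkp4 at 4.02 and the neural cadherin gene cdh2 at 2.84. Of the 3 L probe sets of cdh2 the dimmest read 7.3, below the S probe set at 44.3. In all, the list of epidermis and junctions had 6 of 15 past 4-fold. Between probe sets of the same copy, 5 of 8 copies of this list were past it. The claudin gene cldn6.2, the adhesion gene epcam and the uroplakin gene upk1b were close to equality, at 0.38, -0.44 and -0.01. Of 5 matrix and integrin genes 1 was past 4-fold, the fibronectin receptor gene itga5, at 22.6 and 97.9 for L and 2.6 and 8.3 for S, and the integrin gene itgb1 read 59.7 and 967.0 for L and 980.5 for S, close to equality by 1 L probe set only.

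In the list of cell cycle and replication, the DNA replication genes mcm5, mcm7, mcm4 and pcna were past 4-fold towards L. They are a few members of that list, and 21.3% of all pairs were past 4-fold towards L. From the same list cdc6, at 0.46, and gmnn, at 0.41, were under 4-fold. In the minichromosome maintenance helicase, which unwinds DNA at the fork, mcm5 read 1789.8 for L and 54.4 for S, mcm7 read 1790.0 for L and 231.8 for S, and mcm4 read 276.0 for L and 47.3 for S. The fourth measured subunit gene, mcm6.2, was brighter in L by less than 4-fold, at 1.65. The sliding clamp gene pcna read 1520.4 for L and 279.7 for S. The whole list of cell cycle and replication had 11 of 27 past 4-fold, 7 towards L and 4 towards S, taking in the spliceosome gene cdc5l by its name, with the cyclin gene ccna2 at 2.67, the mitotic kinase gene aurkb at 2.63 and the polo-like kinase gene plk3 at 2.29. Mitotic motors were brighter in S, with kif2a at -2.82, kif11 at -2.05 and kif15 at -2.04. The cyclin gene ccnd1, at 1701.6 for L and 1794.2 for S, and cks2 at -0.11 were nearly equal. Of 14 copies of the whole list with several probe sets, 6 were past 4-fold between them.

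Splicing genes had 6 of 19 pairs past 4-fold, 2 towards L and 4 towards S. The hnRNP gene hnrnpa3 at -3.66, the SR protein genes srsf5a at -2.91 and srsf7 at -2.39 and the kinase gene prpf4b at -2.11 were brighter in S. The hnRNP gene hnrnpc at 2.39 and the regulator gene rbm5 at 2.29 were brighter in L. The dimmer L probe set of rbm5 read 126.5, below its S probe set at 280.7. The median size of 0.96 was below that of all pairs, and some members were close to equality, such as hnrnpdl at -0.38 and hnrnpa0 at 0.19. The RNA-binding gene hnrnpu was so by its brightest probe sets, at -0.42, but its 4 S probe sets ranged from 453.7 to 5235.4 around L at 3926.3. Between probe sets of the same copy, 14 of 33 splicing copies were past 4-fold, with a median size of 1.69. Of 6 genes of RNA polymerase II and Mediator 1 was past 4-fold, the elongation factor gene nelfe at -2.26.

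Cytoplasmic ribosomal protein genes had 2 of 8 pairs past 4-fold, rpl28 at 62.0 for L and 1046.5 for S, and rps12 at 9075.0 for L and 2164.8 for S. The other 6 lay between -0.73 and 0.78. Translation factors had a larger share past 4-fold, 6 of 11, with 4 towards L and 2 towards S. With eif3a, a second subunit gene of the same factor, eif3g, was brighter in L, at 2109.8 for L and 202.9 for S. The elongation factor gene eef1g read 2935.6 and 4228.5 for L and 707.3 for S, while eef1a1o, an elongation factor of the oocyte type by name, read 755.8 for L and 4729.5 for S. The helicase gene eif4a1, at -1.09, and eif1b, at 0.94, were under 4-fold. The S probe sets of eif4a1 read 523.6 and 4094.2, on either side of L at 1920.8. Between probe sets of the same copy, 8 of 16 translation factor copies were past 4-fold, which is a like share, and 5 of 12 ribosomal protein copies.

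Of 12 proteasome pairs 5 were past 4-fold, 4 towards L and 1 towards S. The proteasome joins a core of alpha and beta subunits to a regulatory particle that recognises ubiquitin. The core genes psma3 and psmb2, at 2.94, were brighter in L, as were the regulatory genes psmd8 and psmc5, at 2.02 and 2.00. The regulatory gene psmd2, at 6.6 for L and 1078.0 for S, went the other way. Genes of the same complex did not share a direction: psmd1 read 1223.9 for L and 1307.2 for S, psmd14 read 680.5 for L and 782.0 for S, and psma6 read 861.0 for L and 1542.6 for S. For psmd8 the dimmer L probe set, at 150.7, was below the S probe set at 496.5. Of 6 proteasome copies with several probe sets, 2 were past 4-fold between them.

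The list of chaperones and folding enzymes had 8 of 21 pairs past 4-fold, 4 in each direction. The mitochondrial chaperonin gene hspd1 read 26.3 for L and 163.2 and 807.7 for its S probe sets, and the cyclophilin gene ppia read 145.4 and 2918.9 for L, on either side of its S probe set at 547.8. The endoplasmic reticulum enzyme gene p4hb read 1009.8 and 5174.4 for L and 577.1 for S. In the cytosolic chaperonin, a ring of different subunits, cct8 was brighter in L, at 2.23, cct4 in S, at -2.19, and cct7 in S by less than 4-fold, at -1.36, while tcp1 was nearly equal at 0.30. Of 4 aminoacyl-tRNA synthetases 2 were past 4-fold, kars1 and qars1, both towards S, at -2.40 and -2.30. A second S probe set of qars1, at 116.6, was below the L probe set at 145.3, and the dimmer S probe set of kars1, at 585.7, was under 4-fold from L at 313.4. The ubiquitin list had 6 of 16 past 4-fold, 2 towards L and 4 towards S, including the activating enzyme gene uba1 at -3.01 and the deubiquitinase genes usp1 at -3.18 and usp5 at -3.11. For usp5 a second S probe set read 27.2, below the L probe set at 52.1. Between probe sets of the same copy, 7 of 17 copies of the ubiquitin list and 4 of 13 of the chaperone list were past 4-fold.

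Oxidative phosphorylation genes had 4 of 13 pairs past 4-fold, 3 towards L and 1 towards S. Those brighter in L were ndufa4, at 2408.3 for L and 267.7 for S, the succinate dehydrogenase gene sdha at 3.03 and the ATP synthase gene atp5po at 2.05. The cytochrome oxidase gene cox4i2 was brighter in S, at 19.5 for L and 233.2 for S. Between probe sets of the same copy, 0 of 4 copies of this list were past 4-fold. Of 6 glycolytic genes 2 were past 4-fold: ldhb, a lactate dehydrogenase, at 28.7 for L and 821.5 for S, and pfkp, a phosphofructokinase, at 490.7 for L and 20.9 for the brighter of its S probe sets. The glycolytic genes aldoa and eno1 were nearly equal, at -0.27 and -0.48. Of 4 genes of the tricarboxylic acid cycle and pyruvate dehydrogenase 3 were past 4-fold, ogdh at 2.58, pdha1 at 2.16 and mdh2 at -3.02.

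Mitochondrial import and carrier genes had 8 of 14 pairs past 4-fold, 4 in each direction, and a median size of 2.35. The small import chaperones of the intermembrane space differed in direction, with timm8b at 1619.4 for L and 83.2 for S, timm10 at 21.1 for L and 282.1 for S, and timm13 nearly equal. The prohibitin gene phb2 was brighter in S, at 26.4 for L and 690.7 for S, while its partner phb read 1548.9 for L and 507.8 for S. Solute carriers, which overlap this list, had 7 of 12 past 4-fold, 5 towards L and 2 towards S. They included the lactate transporter gene slc16a3 at 4.72, the zinc transporter genes slc39a9 at 4.71 and slc30a6 at -3.58, and the glutamine transporter gene slc1a5 at -2.65. The solute carrier list took in slc9a3r1 by its name, at 0.32, which is not known as a carrier. Between probe sets of the same copy, 4 of 8 copies of the solute carrier list and 3 of 5 of the import list were past 4-fold.

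Of 27 vesicle traffic pairs 9 were past 4-fold towards L and 2 towards S, beside 171 and 128 of all 801 pairs. Besides rab5if and snap25, those towards L were the Rab acceptor gene rabac1 at 4.22, the SNARE gene sec22b at 3.98 and the clathrin light chain gene cltb at 2.92. The others towards L were vps37b at 2.87, yipf3 at 2.86, arf6.2 at 2.44 and rab7a at 2.12. A second L probe set of cltb, at 14.6, lay below its S probe set at 34.3. For arf6.2 a second L probe set, at 98.1, was under 4-fold from S at 44.3. Towards S were the Rab genes rab4b at -3.54 and rab27a at -2.14. In all 11 the dimmer copy read under 75. Of all 299 pairs past 4-fold, 103 had both copies at 75 or more. Among the pairs under 4-fold, the list took in vps72 by its name, at -1.23, which is not known from vesicle traffic. Of 35 copies of this list with several probe sets, 13 were past 4-fold between them.

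The array labelled Derriere depleted, which the choice of pairs did not use, gave nearly the same ratios. The log2 L/S of the arrays correlated over the 801 pairs, with Pearson's r at 0.98 and Spearman's rho at 0.98. The points share nearly all probe sets, and with them any difference in affinity. In the array labelled Derriere depleted 298 of the pairs were past 4-fold (37.2%), and 270 were past it in the same direction in both arrays. The SD of the difference between the arrays was 0.40, against an SD of 2.28 over pairs. The sign differed in 41 pairs, the largest of which was 0.48 in size in the array labelled wildtype. The brightest probe set was chosen in each array, and it differed between the arrays for a copy of 15 pairs. With the probe sets chosen in the array labelled wildtype kept on both arrays, an alternative added after seeing the data, 299 pairs were past 4-fold in the array labelled Derriere depleted, 270 of them in the same direction in both. Whether other probe sets would give it was not tested by this.

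The response of a copy was taken as its signal in the array labelled Derriere depleted over that in the array labelled wildtype. Within 1 probe set such a ratio cancels its affinity, which holds here for all but the 15 pairs above, of which 5 are among those compared next. In bulk tissue a change in the number of cells of a type cannot be told apart from a change of RNA per cell. Among the 522 pairs with both copies at 75 or more in the array labelled wildtype, the difference between the responses of L and S had an SD of 0.34 on the log2 scale. Probe sets of the same copy, with both at 75 or more, differed in response with an SD of 0.33 over 505 copies. The responses of the copies differed by 2-fold or more in 8 of 522 pairs (1.53%) and those of probe sets of 1 copy in 3 of 505 (0.594%). Across the 522 pairs the correlation of the L and S responses was 0.37 by Pearson's r and 0.36 by Spearman's rho. All points share the same 2 arrays. With the same probe set kept on both arrays, 9 pairs were 2-fold or more apart, the 8 named next and tpd52, with a difference in log2 response of -1.02.

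The difference, L minus S, ran from -1.42 for cdkn2aip to 1.16 for racgap1 among the 8 pairs. For cdkn2aip, whose product binds a cell cycle inhibitor, the L copy read 64.6 in the array labelled Derriere depleted and 142.7 in the array labelled wildtype, and the S copy 149.4 and 123.5 in the same order. The copies of cdkn2aip thus moved apart, with log2 responses of -1.14 for L and 0.27 for S. For cdh3, a cadherin of the early embryo, L read 1627.9 in the array labelled Derriere depleted and 1154.7 in the array labelled wildtype, while S read 354.7 and 512.4 in that order. The copies of racgap1, a cytokinesis regulator, also differed in sign, at 0.54 for L and -0.62 for S. So did those of the limb and heart T-box factor gene tbx3, at -0.65 for L and 0.38 for S, the ATP synthase gene atp5pd, at -0.22 and 0.85, and, with an S response close to 0, the Eph receptor gene ephb3, at -0.94 and 0.09.

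The other 2 were the cement gland gene ag1, with responses of 0.11 for L and 1.21 for S, and the lysosomal sterol carrier gene npc2, with -1.05 for L and -0.02 for S. Their dimmer copies in the array labelled wildtype read 109.5 for S of ag1 and 96.2 for L of npc2. Dimmer still in that array were L of tbx3 at 76.1, S of racgap1 at 76.3 and L of atp5pd at 78.0. These readings lay close to that array's median of 75.4 over frog probe sets. The largest change of L/S between the arrays over all 801 pairs was that of cnfn.1, a cornified envelope gene. Its L copy read 341.7 in the array labelled Derriere depleted and 96.6 in the array labelled wildtype, and its S copy 16.2 and 30.0. The log2 L/S of cnfn.1 was 4.09 in the array labelled Derriere depleted and 1.69 in the array labelled wildtype. With 1 array per group, none of these differences has a replicate check.

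**Figure D5:**
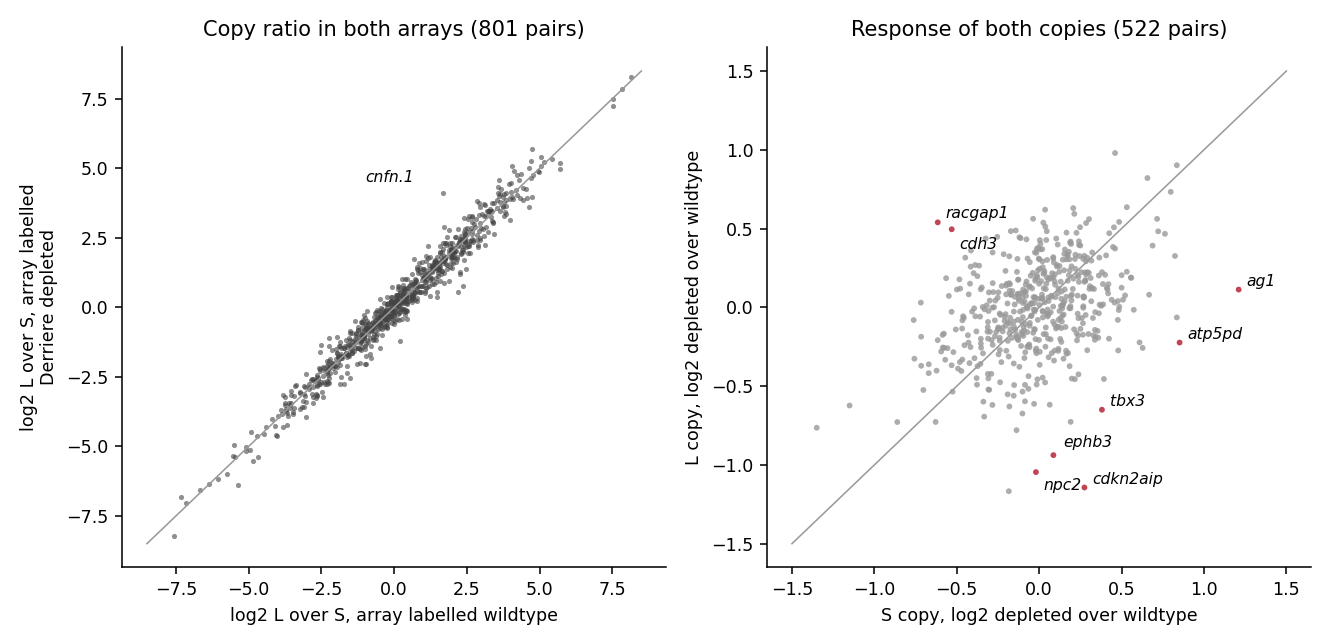
Left, log2 L over S of 801 pairs in the array labelled Derriere depleted (vertical) and in the array labelled wildtype (horizontal), with the line of equality; the points hug the line, with cnfn.1 farthest from it. Right, log2 depleted over wildtype of the L copy (vertical) and the S copy (horizontal) for the 522 pairs with both copies at 75 or more, with the 8 pairs whose copies differ by 2-fold or more in red and named.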

How the data were processed

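Per the labels' protocols, biotin-labelled material from 6 µg of Trizol-extracted RNA was hybridised to the Affymetrix array for Xenopus laevis. The authors deposited linear intensities, 1 for each probe set, and the submitters' processing notes name MAS5. The sources used here give no version and no scaling target for it, and no detection calls. The median intensity over frog probe sets was 74.1 in the array labelled Derriere depleted and 75.4 in the array labelled wildtype.

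Of 15611 probe sets, 120 were Affymetrix controls, 9304 had 1 symbol, 195 had several and 5992 had none in the platform annotation. Only those with 1 symbol were used, 5256 named .L and 3729 named .S. Log2 ratios were taken after raising intensities under 20 to 20. With no replicates there is no test, and unequal means 4-fold or more, a rule of size. The precision is limited by the number of arrays.

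Members, lists and the rule for naming pairs were chosen with earlier results of these data known. The rule took up to 12 extreme pairs in each direction, list members past 4-fold or among the 4 most unequal, pairs with 2 or more probe sets per copy, 8 nearly equal bright pairs, pairs at the limits, 8 pairs differing most in response, the 6 with the largest change of L/S between the arrays, and markers. Some near-equal members given for contrast were chosen after their values were seen. Protein and promoter comparisons were not analysed here. The pairing procedure was tested on simulated data, in which probe sets of a copy differed far less than in these data. That test checked only that ratios put in are found again, and does not bear on differences between probe sets. Tables were made in Python 3.11.15 with pandas 2.3.3, correlations with scipy 1.17.1, ratios with numpy 2.4.6 and plots with matplotlib 3.10.9.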

Additional observations from a re-analysis of the deposited data

How the results depend on the processing

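No paired analysis was possible because the study has only 1 array per group, which also leaves no replicate to omit. The count of 299 pairs past 4-fold lay between 211 and 316 under other floors, an added offset, other ways to summarise a copy, other probe set filters, updated symbols and a minimum of 300, where the count towards S was 82. It was 103 with both copies at 75 or more, 66 towards L and 37 towards S, a setting that leaves out dim copies. At a 2-fold limit the counts were 515, with 289 towards L and 226 towards S, and at 8-fold 146, with 84 and 62. The median log2 L/S was 0.33 with a minimum of 300 and 0.00 with no signal filter, where pairs with both copies at the floor count as 0. The median size between probe sets of the same copy was 0.94 with both at 75 or more. Of 133 named pairs past 4-fold, 95 stayed past it in every one of 13 other settings that measured them. The rest fell under it or turned in at least 1. Falls under 4-fold were most frequent with an offset of 20, in 15 pairs, and with a mean over probe sets, in 13. In the array labelled Derriere depleted 12 fell under it, and at a floor of 40 it was 9. Among named pairs past 4-fold, and with at least 1 copy still at 75, those that turned with the dimmest probe set of each copy were krt70 at 5.08, ccnyl1 at -2.44, ppia at -1.91, psmd8 at -1.72, rbm5 at -1.15 and qars1 at 0.32. With no signal filter, a setting added after seeing the data, acvr2b at 1.21, usp5 at 0.94, fzd10 at 0.28, api5 at 0.12, cltb at -0.78 and cdh2 at -1.15 turned too. The same values of krt70 and qars1 were found without probe sets marked as shared, and ccnyl1 read -0.065 as a mean over probe sets. Planned comparisons of protein and promoter identity were not run.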
